A study of Mus musculus with 2 samples.

Results

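The 39 protein-coding Hox genes of the mouse were described for open chromatin in tissue labelled as hindlimb muscle, out of 21951 protein-coding genes in GENCODE M21. They are the genes whose symbol is Hox, a cluster letter from a to d and a paralogous group number: 11 in the Hoxa cluster (chr6:52155590-52260880, mm10, minus strand), 10 in Hoxb (chr11:96194316-96368256), 9 in Hoxc (chr15:102921103-103036852) and 9 in Hoxd (chr2:74668310-74765142), the last 3 on the plus strand. The measurement was DNase-seq, in which the enzyme DNase I cuts accessible DNA and the cut ends are sequenced. Both libraries came from gastrocnemius, a calf muscle, of 10-day-old female B6CASTF1/J mice, which carry 1 C57BL/6J and 1 CAST/EiJ genome. They form 1 group with no treatment, mutation or other condition, are labelled biological replicates 1 and 2, and were each made from a pool of 3 animals. With 2 libraries of 1 group there is nothing to test between groups: values are given per library, and the gap between the libraries is the replicate spread.

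Hox genes encode homeodomain transcription factors that give cells their position along the head-to-tail axis and along the limb. Within a cluster the genes lie in the order in which they are used, with group 1 at the anterior end and group 13 at the posterior end, and inactive stretches are held by Polycomb proteins while active stretches carry open, trithorax-type chromatin. Genes of groups 9 to 13 pattern the limb from shoulder or hip to digit, and muscle connective tissue and tendon cells are known to keep a positional Hox code after birth. The insulator protein CTCF, bound between neighbouring Hox genes, is known as a boundary between such stretches.

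The libraries differ in ways that touch every result here. Replicate 1 has 114758 peaks and replicate 2 has 26804 in the stricter deposited list, of median height 1.18 and 1.48 (the authors' signal, normalized to read depth), and intervals with a false discovery rate (FDR) of at most 0.05 cover 2.08% and 0.614% of the genome. Peaks of 500 bp or wider make up 1.20% of the list in replicate 1 and 10.9% in replicate 2. Of 15 skeletal muscle markers, 10 and 6 have a promoter peak, which means here that any base of a peak lies no more than 1 kb from an annotated transcription start site (TSS); all protein-coding genes have one in 66.6% and 51.4% of cases. The muscle genes with one include Ckm and Actn3 in both libraries, while Des, Tnnt3 and Tnnc2 have none in either. Of 10 neuron markers, 10 have such a peak in replicate 1, with highest peaks from 1.67 (Camk2a) to 16.1 (Neurod2), and 5 in replicate 2, from 0.654 (Syn1) to 2.05 (Camk2a), where Syp, Stmn2, Tubb3, Neurod2 and Gad1 have none. The muscle share is thus near that of all genes in replicate 1 and below it in replicate 2. The neuron share of replicate 1 is above that of all genes, although its label is muscle. Promoters of like CpG content were not set beside these marker lists. These counts do not establish that either library is the labelled muscle, so the tissue named here is that of the labels, and whether replicate 1 holds other tissue was not tested. The part of the neuronal peaks in the Hox values of replicate 1 was not tested. Schwann cell markers gave 3 and 2 of 5, fibro-adipogenic and tendon markers 3 and 3 of 5, endothelial markers 1 and 1 of 5, erythroid markers 1 and 1 of 5 and macrophage markers 0 and 0 of 5. In a tissue library, fewer cells of a type and less accessible DNA per cell cannot be told apart.

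Inside the clusters there are 7 sites at which a peak of replicate 1 and a peak of replicate 2 overlap. They come from 19 cluster peaks of replicate 1 and 61 of replicate 2. The share of all peaks that overlap the other library was not counted, so no comparison with the genome is drawn. All 7 lie in gaps between neighbouring coding spans, as do all 19 cluster peaks of replicate 1. A gap can hold promoters: among the 7 are a site over an alternative Hoxa7 TSS and one just upstream of the Hoxc10 TSS. Sequences are shown because 6 of the 7 sites hold the letters AGGNGGCGC or AGATGGC, short forms of the recognition sequence of CTCF that were chosen after these sequences had been read; a further site, between Hoxb8 and Hoxb9, is shown for contrast as the tallest Hoxb peak, present in replicate 1 and without a counterpart in replicate 2. Capitals mark the match on either strand. All lines are the plus strand of GRCm38 (mm10) in the C57BL/6J reference; the CAST/EiJ allele was not read. Each line is the whole peak of replicate 1 except that between Hoxa7 and Hoxa9, where the 30 bases around the match that overlaps a footprint are given because the peak reaches into an annotated untranslated exon of Hoxa7.
Hoxa6 to Hoxa7, chr6:52211661-52211820: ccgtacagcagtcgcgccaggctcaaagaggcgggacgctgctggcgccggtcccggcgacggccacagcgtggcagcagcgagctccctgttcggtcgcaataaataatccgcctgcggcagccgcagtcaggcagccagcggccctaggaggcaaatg
Hoxa7 to Hoxa9, chr6:52221798-52221827: ggagccacactGCCATCTcctggaattttc
Hoxa11 to Hoxa13, chr6:52257061-52257220: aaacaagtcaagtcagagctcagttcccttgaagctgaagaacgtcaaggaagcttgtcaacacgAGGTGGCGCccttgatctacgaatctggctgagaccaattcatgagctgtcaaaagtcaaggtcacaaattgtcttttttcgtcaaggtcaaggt
Hoxb8 to Hoxb9, chr11:96278901-96279060: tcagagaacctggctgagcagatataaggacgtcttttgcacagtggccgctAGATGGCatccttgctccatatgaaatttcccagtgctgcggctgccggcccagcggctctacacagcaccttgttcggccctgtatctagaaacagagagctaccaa
Hoxc8 to Hoxc9, chr15:102987541-102987700: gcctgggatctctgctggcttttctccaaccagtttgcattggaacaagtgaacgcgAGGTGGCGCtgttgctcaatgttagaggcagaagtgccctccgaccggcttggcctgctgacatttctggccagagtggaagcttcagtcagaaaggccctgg
Hoxd4 to Hoxd8, chr2:74715881-74716040: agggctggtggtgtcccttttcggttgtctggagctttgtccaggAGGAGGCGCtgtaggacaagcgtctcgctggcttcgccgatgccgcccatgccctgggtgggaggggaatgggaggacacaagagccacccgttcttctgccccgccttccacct
Hoxd12 to Hoxd13, chr2:74673041-74673238: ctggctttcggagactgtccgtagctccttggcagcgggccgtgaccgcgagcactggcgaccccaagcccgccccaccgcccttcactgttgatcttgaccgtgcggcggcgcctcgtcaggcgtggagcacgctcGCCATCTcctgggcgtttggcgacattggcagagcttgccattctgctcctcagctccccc

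The first question was which Hox promoters are open in these postnatal libraries. Hox promoters lack a peak more often than the promoters of other genes, and the libraries mark different ones: mostly anterior and central genes in replicate 1, mostly posterior genes in replicate 2. In replicate 1 a peak lies within 1 kb of an annotated TSS of 7 of 39 Hox genes, where 66.6% of all protein-coding genes have one, and in replicate 2 of 14 of 39, where 51.4% have one. The 7 include Hoxa4, Hoxa7, Hoxb5, Hoxc5, Hoxc10 and Hoxd1. The 14 are Hoxa3, Hoxa7, Hoxa9, Hoxa10, Hoxa11, Hoxa13, Hoxc5, Hoxc9, Hoxc10, Hoxc11, Hoxd3, Hoxd4, Hoxd10 and Hoxd11. Hoxa7, Hoxc5 and Hoxc10 have a peak in both, which is 3 of 39 against 50.9% of all genes, and 21 have a peak in neither library, against 32.9%.

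Genes marked in replicate 2 alone are rare across the genome and common among Hox genes. Hoxa3, Hoxa9, Hoxa10, Hoxa11, Hoxa13, Hoxc9, Hoxc11, Hoxd3, Hoxd4, Hoxd10 and Hoxd11 have a promoter peak in replicate 2 and not in replicate 1. These 11 of 39 compare with 0.46% of all protein-coding genes, so that Hox genes are 11 of the 101 genes in that class. In the other direction, 4 of 39, Hoxa4, Hoxb5 and Hoxd1 among them, are marked in replicate 1 alone, against 15.7% of all genes. In the longer deposited peak list of each library the counts are 16 in replicate 1 and 17 in replicate 2, against 71.1% and 59.7% of all genes, and posterior genes make up 7 and 10 of them. With replicate 1 held to its 26804 tallest peaks, as many as replicate 2 has, its count is 1 (Hoxa7), against 49.6% of all genes.

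By position, the anterior genes (groups 1 to 3) have 2 of 8 promoters with a peak in each library, and the central genes (groups 4 to 8) 4 and 3 of 15. The posterior genes (groups 9 to 13) have 1 of 16 in replicate 1, Hoxc10, and 9 of 16 in replicate 2. Beside the 66.6% and 51.4% of all genes, the posterior share of replicate 2, 56.2%, is near that of all genes, while its 2 of 8 anterior and 3 of 15 central genes are a smaller share. In replicate 1 the 2 of 8 anterior, 4 of 15 central and 1 of 16 posterior genes are each a smaller share than that of all genes. Among peaks at or above the median height of their list, 10 Hox genes are marked in replicate 2 and 5 of them are posterior, so the posterior genes are then no majority. Within groups 9 to 13 the 7 genes with none in either library are Hoxb9, Hoxb13, Hoxc12, Hoxc13, Hoxd9, Hoxd12 and Hoxd13. The other genes without a peak in either library are Hoxa2, Hoxb1, Hoxb2 and Hoxb3 among the anterior genes and Hoxa5, Hoxa6, Hoxb4, Hoxb6, Hoxb7, Hoxb8, Hoxc4, Hoxc6, Hoxc8 and Hoxd8 among the central genes.

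Promoters rich in CpG are usually open in any tissue, and Hox promoters are rich in CpG, so the counts were set beside promoters of like composition. Of the 25 Hox genes with a CpG observed/expected ratio of 0.6 or more within 500 bp of their main TSS, 5 have a peak in replicate 1 and 9 in replicate 2, where 96.8% and 83.6% of all genes of that class do. In neither library were 12 of the 25 marked, against 2.91% of the class. Of the 13 Hox genes between 0.3 and 0.6, 2 and 4 are marked, against 71.0% and 44.0%, and 9 in neither library, against 28.1%. The ratio is that of the main TSS, while a peak at any TSS counts: Hoxd4, the 1 Hox gene under 0.3, has its replicate 2 peak at another TSS, so the 8.35% of genes of its class with a promoter peak in replicate 2 is no like background for it.

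**Figure D1:**
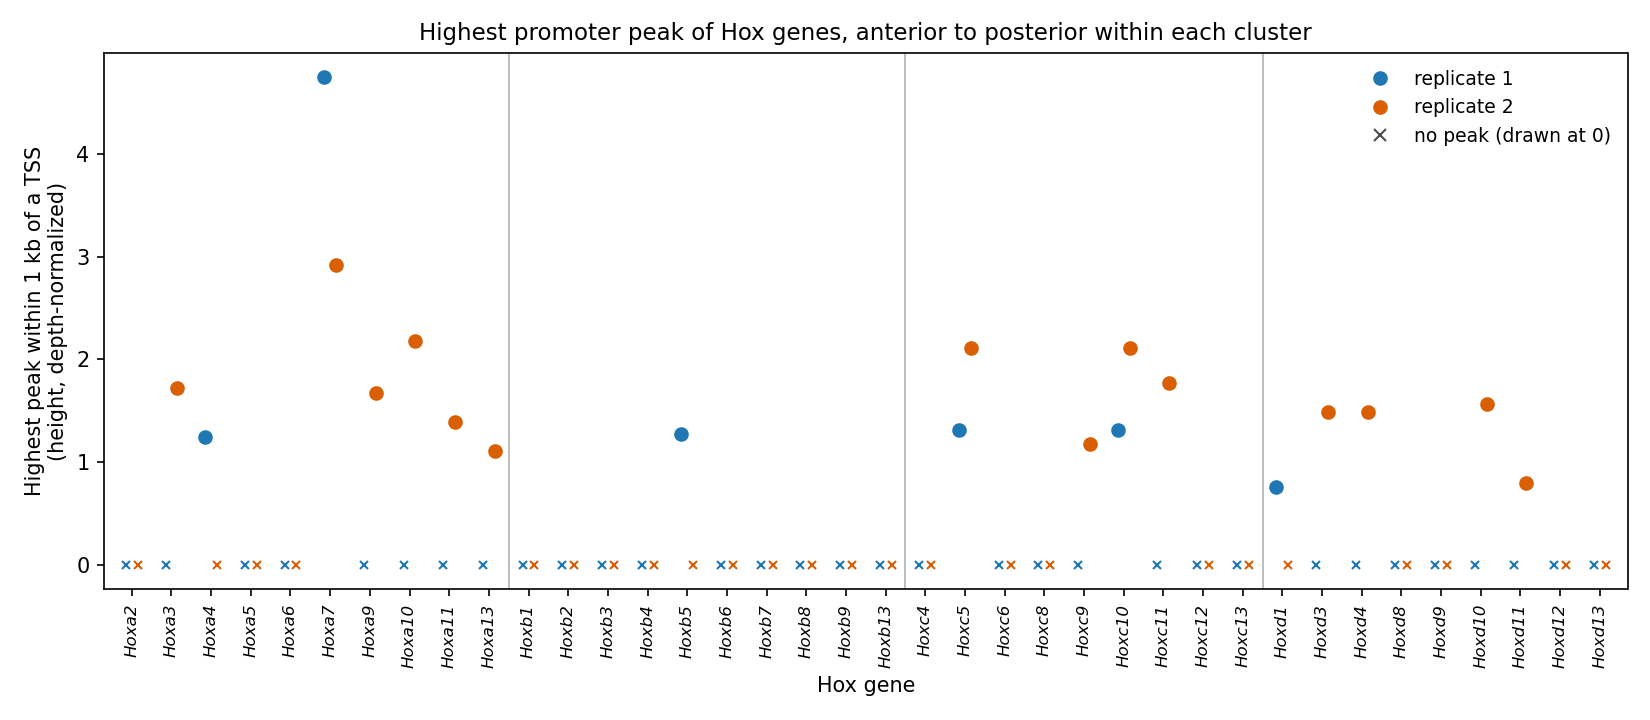
Height of the highest peak within 1 kb of any annotated TSS of the Hox genes named (y axis, the authors' depth-normalized signal), genes in order from anterior to posterior within each cluster (x axis), with 1 point per library and a cross at 0 where there is no peak. Points of replicate 2 fill the posterior end of Hoxa, from Hoxa7 at 2.92 to Hoxa13 at 1.10, and the Hoxb block holds 1 point, Hoxb5 at 1.27 in replicate 1.

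Several of these peaks lie at alternative start sites far from the coding part of the gene they are counted for. In replicate 2, the peaks of Hoxa3 sit between Hoxa6 and Hoxa7 at TSS up to 40.7 kb from the Hoxa3 coding start. The peak counted for both Hoxd3 and Hoxd4 sits between Hoxd4 and Hoxd8, at TSS 32.1 and 15.35 kb from their coding starts. That of Hoxc5 lies beside Hoxc10, 46.6 kb away. When each gene is held to the annotated TSS nearest its coding start, a choice made after these peaks were seen, 6 genes are marked in replicate 1 (among them Hoxa4, Hoxb5, Hoxc5, Hoxc10 and Hoxd1) and 7 in replicate 2 (Hoxa9, Hoxa10, Hoxa11, Hoxa13, Hoxc10, Hoxc11 and Hoxd10), against 55.6% and 41.3% of all genes. On that count all 7 genes of replicate 2 are posterior and 5 of the 6 genes of replicate 1 are not, and Hoxc10 is the gene they share.

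The Hoxa cluster holds the widest difference between the libraries. Replicate 2 has 44 peaks in its 105.291 kb, or 34 once overlapping peaks are merged, and replicate 1 has 6. Per 100 kb that is 41.8 and 5.70 peaks, where the whole genome has 0.983 in replicate 2 and 4.21 in replicate 1. All 44 lie beyond Hoxa6, from position 52211261, in the gap between Hoxa6 and Hoxa7, to 52260198 in Hoxa13, a span of 48.9 kb. The 55.7 kb before it, from the anterior end to past Hoxa6, have no peak of replicate 2.

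Hoxa10, a gene of the proximal limb and of the reproductive tract, has the most peaks. In replicate 2 its coding span alone holds 13 peaks, some of them nested, of which the highest reaches 2.18 and is 1760 bp wide (chr6:52232581-52234340), and 80.9% of the bases within 1 kb of its TSS lie in FDR intervals. Replicate 1 has no peak there in the stricter list and 2.59% of those bases, so the libraries stand far apart at this gene. Hoxa9, which acts with Hoxa10 in the proximal limb and in blood stem cells, has a highest promoter peak of 1.67 in replicate 2 (chr6:52225781-52226720) and none in replicate 1, with 57.2% and 0% of promoter bases in intervals. Hoxa11, a gene of the forearm and shank, has a highest peak of 1.39 in replicate 2 and none in replicate 1, with 91.7% and 0% of promoter bases. Hoxa13, a gene of the hand and foot, has a single peak of 1.10 in replicate 2, 604 bp from its TSS and inside its coding span, and none in replicate 1.

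Hoxa7 has a promoter peak in both libraries, of height 4.74 in replicate 1 and 2.92 in replicate 2, the highest at any Hox TSS in each library. It covers an alternative TSS in the gap toward Hoxa9 rather than the TSS next to the coding start, which has no peak within 1 kb in either library. Hoxa4 has a peak of 1.24 (chr6:52191884-52192045) in replicate 1 and none in replicate 2. Hoxa2, a regulator of the second pharyngeal arch, Hoxa5, of the cervical skeleton and the lung, and Hoxa6 have no promoter peak in either library; their FDR intervals cover 12.3%, 6.45% and 0% of promoter bases in replicate 1 and 0%, 0% and 1.85% in replicate 2.

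**Figure D2:**
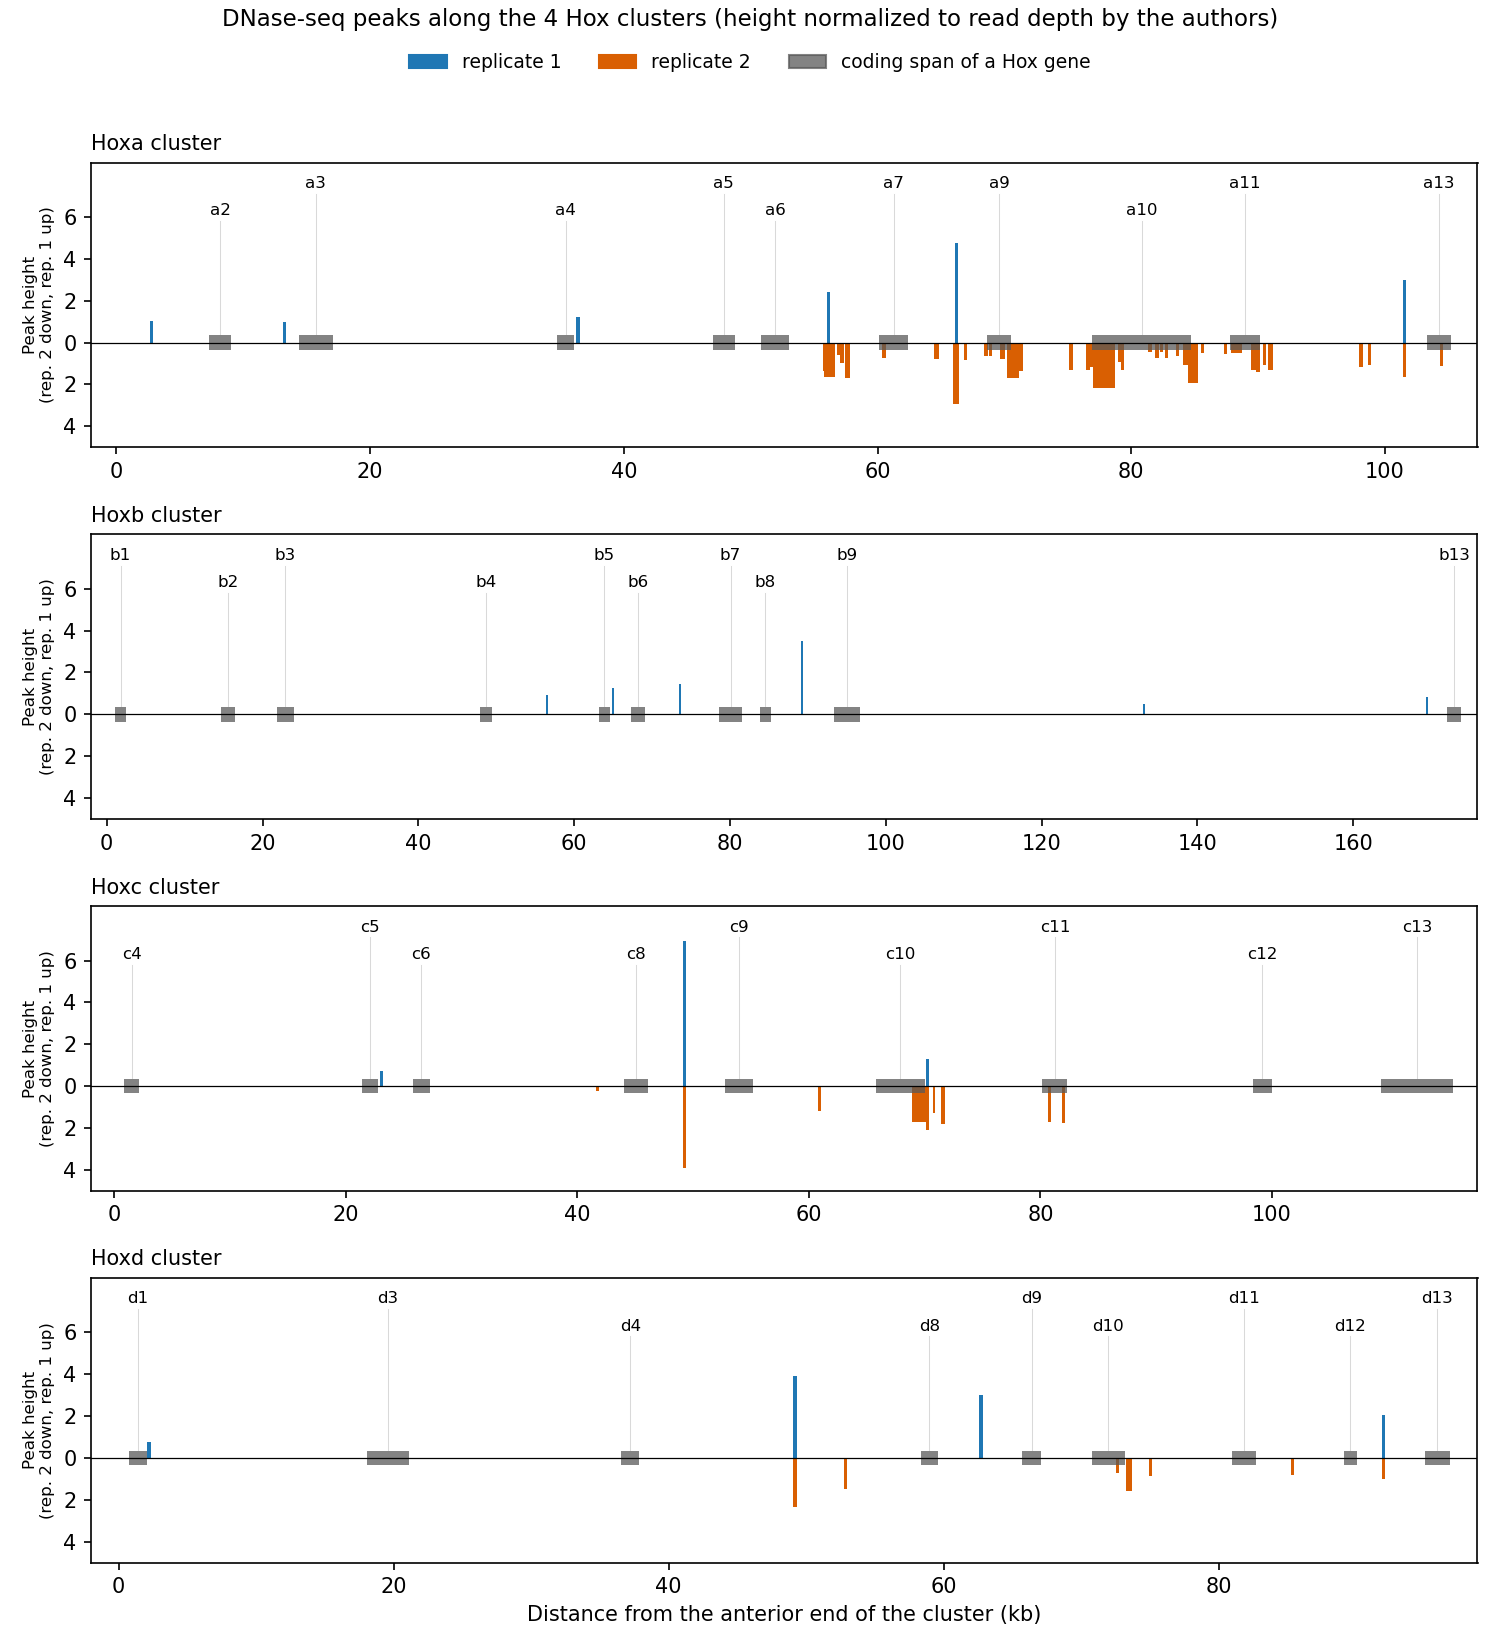
Peaks along each Hox cluster, with the distance from the anterior end in kb (x axis) and the peak height (y axis, the authors' depth-normalized signal; replicate 1 drawn upward, replicate 2 downward); bars are drawn at least 0.25 kb wide and grey boxes are coding spans of the genes named. The 44 peaks of replicate 2 in Hoxa begin 55.7 kb from the anterior end, and Hoxb has 6 peaks in replicate 1 and 0 in replicate 2.

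The Hoxb cluster, the longest at 173.941 kb, has 6 peaks in replicate 1 and 0 in replicate 2. At the genome's average density the counts per 100 kb would be 4.21 and 0.983; in Hoxb they are 3.45 and 0. The tallest, 3.53, is the site between Hoxb8 and Hoxb9 printed above. Hoxb5, which acts in neural crest and in the placing of the forelimb, has the sole promoter peak, 1.27 high in replicate 1 (chr11:96303173-96303303), and none in replicate 2. The remaining 4 peaks lie between Hoxb4 and Hoxb5 (0.913), between Hoxb6 and Hoxb7 (1.44) and between Hoxb9 and Hoxb13 (2 peaks, up to 0.817). No promoter of Hoxb1, Hoxb2, Hoxb3, Hoxb4, Hoxb6, Hoxb7 or Hoxb8 has a base in an FDR interval in either library, while 8.27% of Hoxb9 and 6.40% of Hoxb13 promoter bases do in replicate 1 and 0% in replicate 2.

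The coding span of Hoxb2, a hindbrain gene, has the highest share of bases in FDR intervals of any Hoxb coding span or gap in each library. FDR intervals cover 33.7% of its bases in replicate 1 and 25.7% in replicate 2, each with 3 footprints, although neither strict list has a peak there. None of those bases passes an FDR of 0.001. In the longer lists this stretch holds peaks of height 0.418 and 0.573 in replicate 1 and of 0.858 and 0.901 in replicate 2. The longer list of replicate 2 holds 5 peaks in the whole cluster, and that of replicate 1 holds 14.

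The Hoxc cluster has 3 peaks in replicate 1 and 10 in replicate 2, or 9 once merged. Its leading gene is Hoxc10, which is expressed in the developing hindlimb and not the forelimb and in lumbar motor neurons. Just upstream of the Hoxc10 TSS a peak is present in both libraries, 1.31 high in replicate 1 and 2.11 in replicate 2. Replicate 2 adds a peak of 1.70 and 1154 bp over the TSS and the first part of the gene. FDR intervals cover 12.8% of Hoxc10 promoter bases in replicate 1 and 89.4% in replicate 2, with 2 and 16 footprints.

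Hoxc11, the next gene and likewise a hindlimb gene, has a promoter peak of 1.77 in replicate 2 (chr15:102954841-102954922) and none in replicate 1. Hoxc9, which sets the thoracic identity of motor neurons, has a peak of 1.18 in replicate 2 at an upstream TSS and none in replicate 1. Hoxc5 has a peak of 0.746 and 56 bp next to its own coding part in replicate 1 (chr15:103013741-103013796); in replicate 2 what is counted for it is the Hoxc10 group of peaks. Hoxc4, Hoxc6, Hoxc8, Hoxc12 and Hoxc13 have no promoter peak in either library. Hoxc13, a gene of hair follicles and nails, has 10.7% of promoter bases in FDR intervals in replicate 1 and 0% in replicate 2, and Hoxc6 has 0% and 5.25%. The 41.7 kb at the anterior end, over Hoxc4 to Hoxc6, and the 33.7 kb at the posterior end, over Hoxc12 and Hoxc13, have no peak in replicate 2. With 0.983 peaks per 100 kb in the whole genome of that library, bare stretches of this length are ordinary. Replicate 1 has no peak over the 45.4 kb at the posterior end.

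The Hoxd cluster has 4 peaks in replicate 1 and 7 in replicate 2. Hoxd10, a gene of the proximal limb and lumbar spinal cord, has promoter peaks in replicate 2, of 1.57 (chr2:74691441-74691840) and 0.718, and none in replicate 1, with 52.0% and 0.050% of promoter bases in FDR intervals. Hoxd11, which acts with Hoxa11 in the forearm and shank, has a peak of 0.793 in replicate 2 at an upstream TSS (chr2:74679675-74679861) and none in replicate 1. Hoxd1, known for a role in pain-sensing neurons, has a peak of 0.752 in replicate 1 (chr2:74762825-74763015) and none in replicate 2. Hoxd9 has no peak in either strict list, yet 10.2% of its promoter bases in replicate 1 and 33.4% in replicate 2 lie in FDR intervals, with 3 and 5 footprints, and the longer lists hold a promoter peak of 0.937 in replicate 1 and a highest of 1.45 in replicate 2. Hoxd8 has 0% and 11.1% of promoter bases. Hoxd12 and Hoxd13, the digit genes at the posterior end, have no such base in either library. The 49.1 kb at the anterior end, over the coding spans of Hoxd1, Hoxd3 and Hoxd4, have no peak in replicate 2. The whole genome of that library has 0.983 peaks per 100 kb, so a bare stretch of this length is ordinary. Replicate 1 has no peak over 46.8 kb of nearly the same stretch.

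Each cluster was then divided where the coding span of its last gene of groups 1 to 8 ends, so that the gap leading to the first posterior gene counts as posterior, with the peaks of both libraries at alternative TSS of Hoxa7 in it. Over the posterior parts of all 4 clusters, 238.107 kb, replicate 2 has 52 peaks and replicate 1 has 9. Of the 52, 38 are in Hoxa, 9 in Hoxc, 5 in Hoxd and 0 in Hoxb, with overlapping peaks counted separately. Over the anterior and central parts, 249.504 kb, replicates 2 and 1 have 9 and 10. The share of bases in FDR intervals is 13.2% in the posterior parts and 2.41% in the rest in replicate 2, and 1.90% and 2.00% in replicate 1. In Hoxa the posterior part reaches 47.0% in replicate 2 and 2.59% in replicate 1. Hoxd follows with 12.9% and 2.37%, Hoxc with 9.23% and 1.43%, and Hoxb runs the other way with 0.195% and 1.73%.

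Footprints, short stretches inside accessible DNA that are cut less than their surroundings, were counted in the same places. In replicate 2 there are 148 in Hoxa, 52 in Hoxc, 39 in Hoxd and 7 in Hoxb, and in replicate 1 there are 43, 10, 25 and 33. The posterior parts hold 216 and 60 of these in replicates 2 and 1, and the anterior and central parts 29 and 51. Replicate 1 has 468215 footprints genome-wide and replicate 2 has 115528, so the surplus of replicate 2 in Hoxa, Hoxc and Hoxd goes against the totals. In Hoxb the surplus of replicate 1 goes with them. Replicate 2 also has more bases in peaks in Hoxa, Hoxc and Hoxd. Per kb of peak, with the clusters' footprints outside peaks counted too, replicate 1 has more. The values in replicates 1 and 2 are 42.7 and 11.2 in Hoxa, 25.3 and 20.3 in Hoxc, and 34.3 and 28.7 in Hoxd. Replicate 1 also has more over the whole libraries, 14.4 and 10.9 per kb of peak with only footprints inside peaks counted. The direction is thus no trait particular to the clusters.

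**Figure D3:**
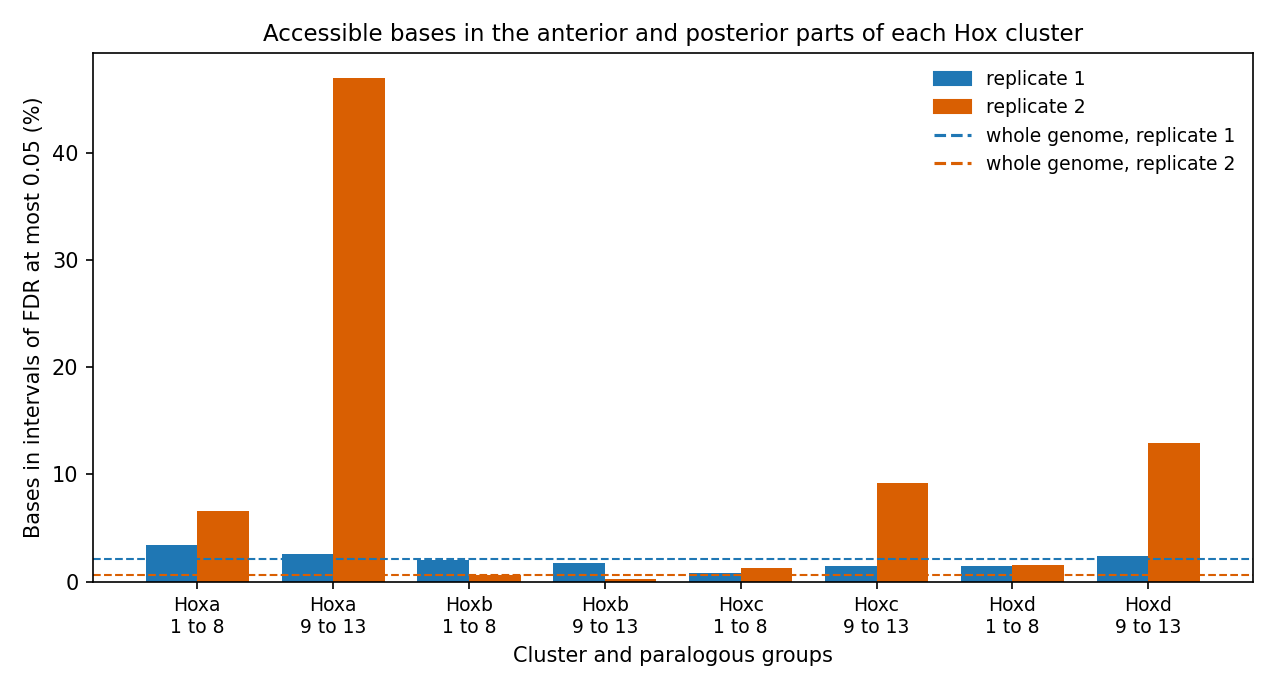
Percent of bases in intervals with an FDR of at most 0.05 (y axis) in the anterior and central part (groups 1 to 8) and the posterior part (groups 9 to 13) of each cluster (x axis), 1 bar per library; dashed lines are the whole genome. The posterior Hoxa bar of replicate 2 stands at 47.0%, where the genome line of that library is at 0.614%.

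In the stricter lists the libraries also differ in where their peaks lie inside the clusters. Replicate 1 has no peak in any of the 39 coding spans and 19 peaks in 18 of the 35 gaps between neighbouring spans. The spans cover 85177 bases and the gaps 402434. The gaps hold 4.72 peaks per 100 kb in replicate 1, near the 4.21 of its whole genome. In its longer list replicate 1 does have peaks in coding spans, those of Hoxa2, Hoxa13 and Hoxb9 among them. Replicate 2 has 26 peaks in 8 coding spans (Hoxa7, Hoxa9, Hoxa10, Hoxa11, Hoxa13, Hoxc10, Hoxc11 and Hoxd10) and 35 peaks in 13 gaps. Per 100 kb that is 30.5 in spans and 8.70 in gaps, where its whole genome has 0.983. Cluster peaks are 56 to 226 bp wide in replicate 1 and 24 to 1760 bp in replicate 2, and 9 of the 61 peaks of replicate 2 are 500 bp or wider, against 0 of 19 in replicate 1; over all peaks the shares are 10.9% and 1.20%. Their heights are middling within each list, with a median percentile of 54.2 in replicate 1 and 40.6 in replicate 2.

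The 7 sites common to the libraries have a higher median height than the rest of the cluster peaks in both. Their median height is 2.98 in replicate 1, where the other 12 cluster peaks have a median of 1.01, and 2.11 in replicate 2, where the other 54 have 1.18. Single sites depart from this: the Hoxd12 to Hoxd13 site is below 1.18 in replicate 2, and the unshared Hoxb8 to Hoxb9 peak of replicate 1 reaches 3.53. The sites were chosen for a peak in both lists, and shared and other peaks of the whole lists were not compared, so no weight is put on the difference. The tallest of the 7 is the site between Hoxc8 and Hoxc9, 6.93 in replicate 1 and 3.90 in replicate 2. It is the highest peak of any Hox cluster in each library, at the percentiles 92.0 and 97.0 of the lists. The site between Hoxa7 and Hoxa9 has 4.74 and 2.92, the site between Hoxd4 and Hoxd8 has 3.91 and 2.36, and the site between Hoxa11 and Hoxa13 has 2.98 and 1.66. The site between Hoxa6 and Hoxa7, where the peaks of replicate 2 begin, has 2.40 and 1.64, and the site between Hoxd12 and Hoxd13 has 2.06 and 1.02. The Hoxc10 promoter site is lower in replicate 1 than in replicate 2, with 1.31 and 2.11. In the other 6 the height of replicate 1 is above that of replicate 2.

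**Figure D4:**
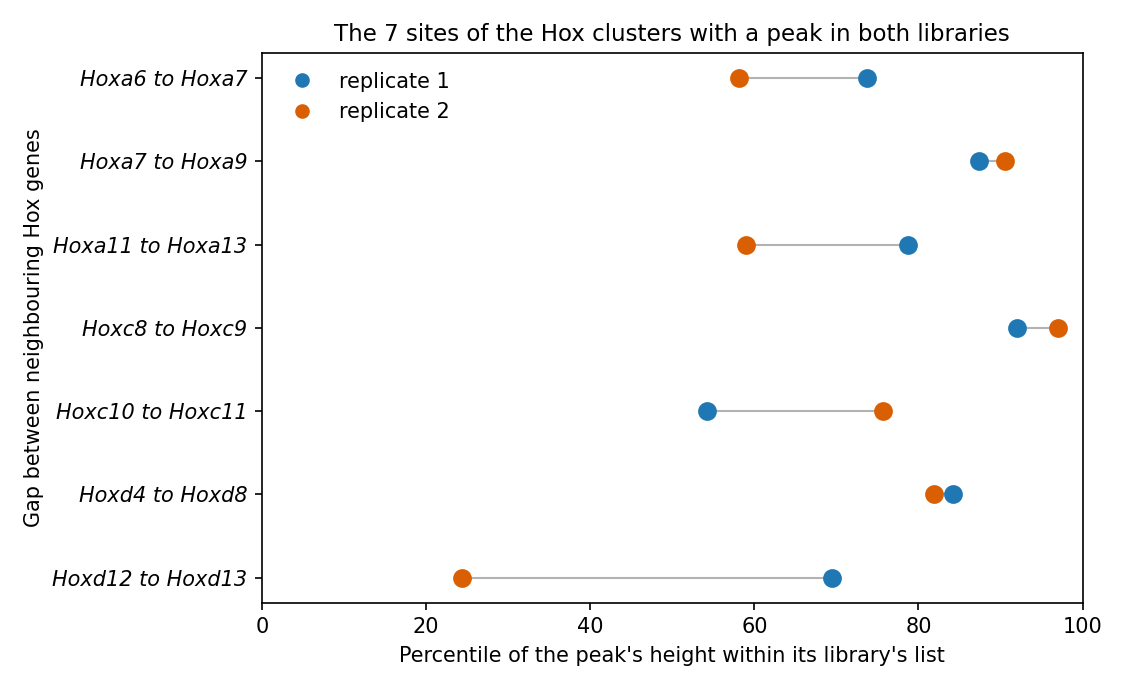
Percentile of the peak height within the peak list of its own library (x axis) for the 7 gaps with a peak in both libraries (y axis), with 1 point per library joined by a line. The site between Hoxc8 and Hoxc9 is the farthest to the right in each library, at 92.0 and 97.0, and that between Hoxd12 and Hoxd13 has the widest spread, 69.5 and 24.4.

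The short forms were picked by reading the shared sites, so how often these hold them is a description with no background to set it against. The form AGGNGGCGC, on either strand, is found in sites that include Hoxa11 to Hoxa13, Hoxc8 to Hoxc9 and Hoxd4 to Hoxd8, and the form AGATGGC in Hoxa7 to Hoxa9 and Hoxd12 to Hoxd13. The 2 forms do not contain each other. Within the 150 bp around the peak midpoint, which reach past narrower peaks, 6 of the 7 shared sites hold a form in either library. Of the cluster peaks without a counterpart, 3 of 12 in replicate 1, the Hoxb8 to Hoxb9 site among them, and 1 of 54 in replicate 2 do, where 11.3% and 9.34% of all peaks do. Because the forms were chosen on the shared sites, the difference between shared and other cluster peaks is no result. At each of the 6 sites a match overlaps a footprint in both libraries, where 62.0% and 62.4% of such matches in all peaks overlap a footprint. These 6 sites are likewise those on which the forms were chosen. A longer form of the same motif, CC and AGGNGGC with 3 bases of any kind between them, overlaps the first short form in letters and was found in 2 of 19 cluster peaks in replicate 1 and 2 of 61 in replicate 2, against 5.98% and 7.8% of all peaks, and of the 7 shared sites it is in 1, Hoxd4 to Hoxd8. These are matches of letters and no measure of CTCF binding.

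Other motifs were searched on both strands in the same windows, the 150 bp around each peak's midpoint, in the clusters and over all peaks. A window reaches past a peak narrower than itself, so some of the matches counted lie outside the peak. TGATTNAT, a joint HOX and PBX form, is in the windows of 2 of 61 cluster peaks of replicate 2, against 0.545% of all its peaks. Of these, the match at the 110 bp peak chr6:52254301-52254410 lies outside that peak. In replicate 1 the form is in 0 of 19, against 1.02%. TTTATNG, a form bound by posterior HOX proteins, is in 4 of 61 and 1 of 19, against 2.15% and 2.86%. TAATTA, the common homeodomain form, is in 0 of both, against 0.649% and 1.87%. CAGCTG, the E-box of the myogenic factors, is in 3 of 61 and 3 of 19, against 10.9% and 16.3%, and the MEF2 form, CTA and TAG with 4 bases between them, is in 0 of both, against 1.18% and 1.48%. GGGCGG, bound by SP and KLF factors, is in 11 of 61 and 7 of 19, against 29.3% and 15.9%. TGACAG, bound by MEIS, is in 2 of 61 and 1 of 19, against 8.77% and 14.0%, TGANTCA, bound by AP-1, in 3 and 1, against 2.58% and 3.8%, and GGAATG, bound by TEAD, in 5 and 1, against 6.38% and 7.72%.

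The clusters also hold microRNA genes, which are shown by their mature sequence from RefSeq (GRCm38) because 4 of the mature sequences fall into 2 seed families, and their genes lie at different distances from a peak. Capitals mark the seed, bases 2 to 8.
mmu-miR-196b-5p (Hoxa): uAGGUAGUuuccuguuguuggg
mmu-miR-196a-5p (Hoxb and Hoxc): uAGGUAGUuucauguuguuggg
mmu-miR-10a-5p (Hoxb): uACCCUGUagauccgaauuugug
mmu-miR-10b-5p (Hoxd): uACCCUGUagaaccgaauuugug
The miR-196 family, known to act on Hox messenger RNAs, lies next to the group 9 genes. Mir196b, between Hoxa9 and Hoxa10, has a replicate 2 peak of 1.31 at 496 bp from the start of its hairpin, and its nearest replicate 1 peak is 8245 bp away. The Hoxc copy, Mir196a-2, has its nearest peaks at 2491 bp in replicate 2 and 6650 bp in replicate 1. For the Hoxb copy, Mir196a-1, the distances are 119315 and 13737 bp. Mir10a, beside Hoxb4, is 90722 and 5371 bp from the nearest peak, and Mir10b, beside Hoxd4, 10010 and 10030 bp. The mature miR-615-5p of Mir615, in Hoxc5 and of another seed, lies 19769 and 1130 bp from the nearest peak.

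Among noncoding genes inside the clusters with a peak within 1 kb of a TSS, those at the anterior end of Hoxa are marked in replicate 1 and those at the posterior end in replicate 2. Hoxaas2, between Hoxa2 and Hoxa3, has 0.979 in replicate 1 and no peak in replicate 2. Hoxa11os, the antisense transcript of Hoxa11, has 6 peaks up to 1.39 in replicate 2 and none in replicate 1. Gm28032, Gm27492, Gm27695 and Gm27817, short RNAs in the same stretch, have a highest peak of 1.30 to 1.39 in replicate 2 and none in replicate 1. The start of 9530018H14Rik lies at the Hoxa11 to Hoxa13 site and has its heights, 2.98 and 1.66, and Hoxd3os1 starts at the Hoxd4 to Hoxd8 site and has 3.91 and 2.36. Haglr, which shares a promoter with Hoxd1, has 0.752 and Gm27898, near Hoxb13, 0.817 in replicate 1, with none in replicate 2. Gm28308, a protein-coding gene model that starts beside the distal TSS of Hoxa3, has 1.72 in replicate 2 and none in replicate 1. Hotair, between Hoxc11 and Hoxc12, has no peak in either library.

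Beyond the cluster ends the peak counts of replicate 2 lie around the average of its whole genome, 0.983 per 100 kb. In the 100 kb on either side replicate 2 has 0 and 0 at Hoxa, 2 and 1 at Hoxb, 0 and 0 at Hoxc and 1 and 1 at Hoxd, anterior side first. Replicate 1 has 4 and 2, 9 and 4, 5 and 0, and 3 and 5, where its whole genome has 4.21 per 100 kb. The nearest protein-coding genes past the anterior ends have highest promoter peaks of 13.9 and 2.73 (Skap2, Hoxa), 0.698 and none (Skap1, Hoxb), 6.29 and 2.08 (Smug1, Hoxc) and 2.50 and 0.890 (Mtx2, Hoxd) in replicates 1 and 2. Past the posterior ends, the homeobox genes Evx1 (Hoxa) and Evx2 (Hoxd) have no promoter peak in either library, Ttll6 (Hoxb) has 0.513 in replicate 1, and Calcoco1 (Hoxc) has 12.3 and 1.69.

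The proteins that bind DNA together with HOX factors are encoded by genes with open promoters. All 9 genes of the list, among them Pbx2, Pbx3, Pbx4, Meis1, Meis2, Meis3, Pknox1 and Pknox2, have a promoter peak in both libraries, against 50.9% of all genes. Their highest peaks range from 0.913 (Meis2) to 22.0 (Pknox1) in replicate 1 and from 0.933 (Meis3) to 3.71 (Pknox1) in replicate 2. Of 18 regulators of Hox chromatin, 16 have a promoter peak in replicate 1 and 11 in replicate 2, where 66.6% and 51.4% of all genes do. Neither list was set beside promoters of like CpG content. Among all genes with a CpG ratio of 0.6 or more, 96.8% and 83.6% have a promoter peak. The Polycomb enzyme gene Ezh2 has 17.2 and 2.91, the trithorax-type methyltransferase gene Kmt2a has 23.8 and 4.71, and Ctcf has 9.55 and 2.91. Cdx1 and Cdx2, activators of Hox clusters in the embryo, have none in either library. Of 10 limb position genes outside the clusters, Meis1 and Meis2 again among them, 6 and 4 have a promoter peak, which is no higher a share than that of all genes in either library. Shox2, a gene of the proximal limb, has 4 promoter peaks up to 1.45 in replicate 2 and none in replicate 1, while the hindlimb genes Pitx1 and Tbx4 and the forelimb gene Tbx5 have none in either library.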

How the data were processed

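Per the labels and deposited notes, each library's own filtered alignments to mm10 were used to call its peaks, without pooling. The sources used here do not give the aligner, the callers of peaks and footprints or any version. The deposited peak height is a signal that the authors normalized to read depth; intervals come with the authors' FDR, which is a p-value after correction for multiple testing; the deposited footprint score is 0.01 for every footprint, so footprints were only counted. Read totals are not used here, and values carry no counting interval. The peak list with fewer rows was used for each library.

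A promoter peak has any base within 1 kb of any annotated TSS (GENCODE M21). Cluster peaks and footprints were placed by midpoint, from the first to the last base of a cluster's Hox genes; coding spans run from first to last coding base. Peaks were shared when the overlap was at least 50% of either. Alternatives were the longer list, taller peaks, an equal number of tallest peaks, merged peaks, windows of 500 bp and 2 kb, principal TSS, other overlaps, an FDR of 0.001, each library alone and, added after the data were seen, the TSS nearest the coding start. The rule named Hox genes, neighbours, noncoding genes with a peak and both gene lists whatever their values, with up to 6 names for regulators. Some genes and 1 sequence are not reported here. Members and lists were chosen with earlier results of these data known. Overlap and coverage code was tested on simulated data and against bedtools 2.31.1. Python 3.11.15, pandas 2.3.3 and pysam were used.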

Additional observations from a re-analysis of the deposited data

How the results depend on the processing

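The contrast of a posterior replicate 2 with a replicate 1 that is not posterior rests on 2 libraries, so leaving out either ends any statement on spread. With a single library left, the mean of peaks per cluster, 25 in Hoxa, 3 in Hoxb and 6.5 in Hoxc, ranges from 6 to 44, 0 to 6 and 3 to 10. Footprints range from 43 to 148 in Hoxa, 7 to 33 in Hoxb and 10 to 52 in Hoxc, and bases in FDR intervals from 3.06% to 23.0% in Hoxa, 0.399% to 1.85% in Hoxb, 1.16% to 6.03% in Hoxc and 1.79% to 5.94% in Hoxd. Hox genes marked in every library used number 7 to 14, and in none 25 to 32. The replicate 1 count cannot be recomputed without replicate 1, nor that of replicate 2 without replicate 2.

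In the longer lists, Hox genes with a promoter peak number 16 in replicate 1, 7 in both libraries and 13 in neither. Peaks there number 11 in Hoxa, 14 in Hoxb, 6 in Hoxc and 9 in Hoxd in replicate 1, and 5 in Hoxb, 24 in Hoxc and 22 in Hoxd in replicate 2. Gaps hold 32 and 74 peaks, and 16 are shared. At the 26804 tallest peaks, replicate 1 has a promoter peak at 1 gene, shared with replicate 2, of height 4.74, and 2 peaks in Hoxa, 1 in Hoxb, 1 in Hoxc and 2 in Hoxd, 6 in gaps and 4 shared. Among peaks at or above the median height of their list, replicate 1 keeps 3 in Hoxb and 12 in gaps, and replicate 2 keeps 11 in Hoxa, 3 in Hoxd and 13 in gaps. Principal TSS mark 9 genes in replicate 2 and 1 in both libraries, the TSS nearest the coding start 7 and 1, and the 2 kb window 5 in both. At an FDR of 0.001, bases covered are 1.56% in Hoxa, 0.503% in Hoxb, 0.487% in Hoxc and 0.950% in Hoxd in replicate 1, and 0% in Hoxb, 2.53% in Hoxc and 1.56% in Hoxd in replicate 2. The cause of these shifts was not tested. No paired analysis was possible because there is 1 group.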
